A study of Mus musculus with 6 samples.

Results

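*Dazl*, *Ddx4*, *Mael*, *Asz1*, *Slc25a31*, *Hormad1*, *Sycp3*, *Syce1*, *Brdt*, and *Tex101* are 10 germ cell genes known to be silenced by DNA methylation of their promoters in somatic cells. They were picked by name among the 31751 genes to which the CpG sites of a reduced representation bisulfite sequencing (RRBS) table were assigned as the closest transcription start site (TSS). The table held 507 CpG sites for these genes, and 180 of them had at least 10 reads in all 6 samples, of 681804 such sites in all. Promoter sites, which lay within 1 kb of the TSS, numbered 153 and belonged to 8 of the 10 genes, while *Tex101* and *Syce1* had measured sites only farther away. With a minimum of 5 reads, there were 251 sites, of which 203 were promoter sites of the same 8 genes.

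GS cells are spermatogonia grown in culture, a part of which are spermatogonial stem cells. All samples had the genotype DBA/Tg14(act-EGFP-OsbY01), in which a ubiquitously driven EGFP transgene from a C57BL6 line had been crossed into DBA/2. Space GS cells were cryopreserved for 6 months on the International Space Station, and Ground GS cells were cryopreserved for 6 months on Earth, with 3 replicates in each group, which the submitters call biological. Both were cultured after thawing on feeder layers of mouse embryonic fibroblasts (MEFs), and the sources used here do not state how MEFs were kept out of the DNA or whether replicates were thawed separately, so that the p-values measure only the spread between these samples. The series has no somatic sample, and only the methylation in GS cells was measured.

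In somatic cells, methylation of CpG-rich promoters keeps a small class of germ cell genes off. The marks are placed in the early embryo, and germ cell precursors lose them when their genome is demethylated before meiosis begins. Many of these promoters carry binding sequences for E2F6 or for the MGA and MAX pair, which recruit a Polycomb complex to germ cell genes in embryonic stem cells. The products act in RNA control (*Dazl* and *Ddx4*), in transposon silencing by piRNAs (*Mael* and *Asz1*), in meiotic chromosome structure (*Hormad1*, *Sycp3*, and *Syce1*), and in later stages of spermatogenesis (*Slc25a31*, *Brdt*, and *Tex101*).

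RefSeq promoter sequences of GRCm38.p6, which run from 250 bases before to 50 bases after the start, were matched by symbol for 10 of 10 genes. They held 14 to 38 CpGs each, with a median of 22.5, whereas the median of all 27025 promoters was 7.0. The ratio of observed to expected CpGs was 0.62 to 0.98 in the germ cell genes, and the median of all promoters was 0.39. These are therefore CpG-rich promoters, in which a methylated state would be spread over many CpGs. The deposited coordinates are those of mm39, so that measured CpGs were placed in the GRCm38.p6 sequences only by their spacing, which was possible for 7 genes. At *Hormad1*, for example, 16 of 16 sites fell on a CG at the best placement, and at most 5 did at any other.

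The sequences of 4 of these promoters show which CpGs the reads covered. The lines hold the 250 bases before the RefSeq start, from 5′ to 3′, with each CpG that had at least 5 reads in all samples in capitals. *Hormad1* (chr3:95559427-95559676, plus strand) and *Slc25a31* (chr3:40708621-40708870, plus strand) carry the E-box described later, *Asz1* (chr6:18109062-18109311, minus strand) carries none, and *Tex101* (chr7:24672051-24672300, minus strand) is the promoter that the deposited TSS missed.
Hormad1: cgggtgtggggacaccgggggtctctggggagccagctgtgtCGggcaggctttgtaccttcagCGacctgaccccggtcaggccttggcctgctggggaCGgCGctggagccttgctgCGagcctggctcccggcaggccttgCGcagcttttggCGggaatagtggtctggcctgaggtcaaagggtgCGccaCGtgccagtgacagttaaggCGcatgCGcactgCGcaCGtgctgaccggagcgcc
Slc25a31: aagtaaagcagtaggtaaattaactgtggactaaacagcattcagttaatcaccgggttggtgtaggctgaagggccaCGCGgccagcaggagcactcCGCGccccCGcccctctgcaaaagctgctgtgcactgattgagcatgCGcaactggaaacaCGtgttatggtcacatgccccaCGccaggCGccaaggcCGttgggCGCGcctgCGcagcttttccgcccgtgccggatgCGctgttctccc
Asz1: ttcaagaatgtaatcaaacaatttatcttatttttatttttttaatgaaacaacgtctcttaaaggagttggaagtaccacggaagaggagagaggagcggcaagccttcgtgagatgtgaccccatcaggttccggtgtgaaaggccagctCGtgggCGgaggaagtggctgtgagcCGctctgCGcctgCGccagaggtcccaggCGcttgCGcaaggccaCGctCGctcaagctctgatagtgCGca
Tex101: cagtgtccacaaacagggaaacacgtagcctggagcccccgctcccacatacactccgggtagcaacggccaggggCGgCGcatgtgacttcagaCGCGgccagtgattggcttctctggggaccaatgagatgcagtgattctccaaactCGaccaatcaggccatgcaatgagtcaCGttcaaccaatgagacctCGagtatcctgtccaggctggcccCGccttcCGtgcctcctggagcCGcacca
The number of CpGs in capitals was 13 in *Hormad1*, 14 in *Slc25a31*, 10 in *Asz1*, and 10 in *Tex101*. Each of the 4 sequences was thus measured at many points in the stretch next to the start.

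A promoter level is the percent of methylated reads, summed over the promoter sites of a gene. In the 8 germ cell promoters the mean level over the 6 samples ranged from 0.740% in *Mael* to 7.03% in *Brdt*, and 7 of 8 lay under 5%. This was the state of most promoters in these cells, since 93.5% of 14373 promoters with at least 3 sites were under 5% and 3.58% were at 20% or above. Except for *Mael*, the germ cell promoters were not at the bottom of that distribution. In 7 of 8, the mean level exceeded the median of all promoters, which was 1.82%, though *Sycp3* (1.86%) and *Asz1* (1.90%) lay close to it. At single sites, 141 of 153 promoter sites (92.2%) had a mean level under 5%, 12 were between 5% and 20%, and 0 reached 20%. Over all genes, 97.1% of 390568 promoter sites had a mean level under 5%. The plot of promoters among all promoters shows this order.

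**Figure D1:**
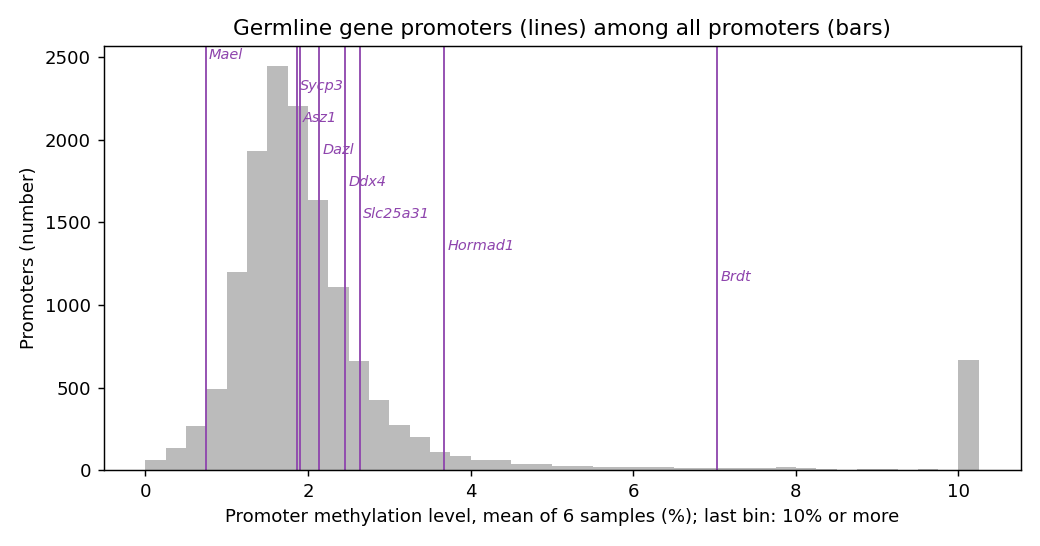
Histogram of the mean methylation level over 6 samples (x axis, percent) of 14373 promoters (y axis, number of promoters), with the 8 germ cell promoters as lines. *Mael* lies at 0.740%, the next 6 between 1.86% and 3.68%, and *Brdt* at 7.03%.

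*Dazl* encodes an RNA-binding protein that germ cells need to enter meiosis. Its gene (ENSMUSG00000010592) starts at position 50600663 on the minus strand of chromosome 17 in mm39, and 49 promoter sites from 494 bp upstream to 913 bp downstream were read 14 to 76 times. The promoter level was 1.95%, 1.47%, and 2.57% in Space replicates 1 to 3. It was 4.5%, 1.5%, and 0.827% in Ground replicates 1 to 3. The highest and the lowest value were both from Ground GS cells, so that the groups overlapped. The means were 2.00% ± 0.550 for Space and 2.28% ± 1.96 for Ground replicates (SD, n = 3 each).

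*Ddx4* is the mouse vasa gene and encodes an RNA helicase of germ cells. Its gene (ENSMUSG00000021758) starts at position 112789008 on the minus strand of chromosome 13, and 16 sites from 98 to 301 bp downstream were read 12 to 78 times. By the CpG spacing, the RefSeq start lay 165 bp downstream of this deposited TSS. Of the 16 sites, 10 lay upstream of the RefSeq start. The level was 3.44%, 1.93%, and 3.13% in Space replicates 1 to 3 and 3.41%, 0.775%, and 2.04% in Ground replicates 1 to 3. Ground replicate 2 had the lowest level, and the other 5 samples were interleaved. The means were 2.84% ± 0.798 and 2.08% ± 1.32 (SD, n = 3 each). With a minimum of 5 reads, 14 sites from 28 bp upstream to 51 bp downstream were added. The mean level over the 6 samples was then 2.02%.

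*Mael* and *Asz1* encode proteins of the germ granule that take part in piRNA production. *Mael* (ENSMUSG00000040629, TSS at position 166066315, minus strand of chromosome 1) had 10 sites from 48 to 140 bp downstream, read 27 to 40 times. Its level was 0.25%, 0.645%, and 2.83% in Space replicates 1 to 3 and 0.717% in Ground replicate 2. In Ground replicates 1 and 3 it was 0%, and the same 28 and 32 reads probably covered all 10 sites, which allows levels of up to 10.7% and 9.38%. The mean of *Mael* (1.24% ± 1.39 in Space and 0.239% ± 0.414 in Ground, SD, n = 3 each) was the lowest of the 8, and 3.12% of all promoters had a lower one. Space replicate 3, which was the highest, had 1 methylated read at 9 of the 10 sites and 2 at the other, of 38 or 39 reads, and without it the mean of *Mael* was 0.322%.

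*Asz1* (ENSMUSG00000010796, TSS at position 18109059, minus strand of chromosome 6) had 14 sites from 98 bp upstream to 93 bp downstream, read 11 to 44 times. Its level was 1.98%, 1.13%, and 1.57% in Space replicates 1 to 3 and 3.57%, 0.329%, and 2.83% in Ground replicates 1 to 3. The Space values lay between the lowest and the highest Ground value. The means were 1.56% ± 0.423 and 2.24% ± 1.70 (SD, n = 3 each).

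*Hormad1* encodes a protein of the unsynapsed meiotic chromosome axis. Its gene (ENSMUSG00000028109) starts at position 95466987 on the plus strand of chromosome 3, and 19 sites from 423 bp upstream to 23 bp downstream were read 17 to 82 times. The level was 3.75%, 2.90%, and 2.35% in Space replicates 1 to 3 and 6.64%, 2.10%, and 4.33% in Ground replicates 1 to 3. Ground replicate 1 was above the other samples, and Ground replicate 2 was the lowest. The means were 3.00% ± 0.702 and 4.35% ± 2.27 (SD, n = 3 each). Methylation was not even along this promoter. The mean levels of the 2 outermost sites, at 423 and 420 bp upstream, were 15.4% and 11.1%, and the site at 423 bp was at 10% or above in all 6 samples.

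*Sycp3* encodes a component of the lateral element of the synaptonemal complex. Its gene (ENSMUSG00000020059) starts at position 88295430 on the plus strand of chromosome 10, and 14 sites from 104 to 408 bp downstream were read 17 to 69 times. The level was 1.51%, 0.797%, and 1.44% in Space replicates 1 to 3. It was 3.58%, 2.28%, and 1.57% in Ground replicates 1 to 3. All Ground values exceeded all Space values, which was the case in this 1 of the 8 promoters, while 9.55% of all promoters had groups that did not overlap in either direction. The means were 1.25% ± 0.391 and 2.48% ± 1.02 (SD, n = 3 each). Space replicate 1 and Ground replicate 3 stood next to each other in this order, with 11 of 729 and 9 of 573 calls (reads summed over sites) methylated.

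*Slc25a31* encodes the ADP/ATP carrier of the mitochondria of male germ cells. Its gene (ENSMUSG00000069041) starts at position 40663284 on the plus strand of chromosome 3, and 26 sites from 266 bp upstream to 504 bp downstream were read 12 to 82 times. The level was 3.04%, 2.84%, and 2.73% in Space replicates 1 to 3 and 2.87%, 2.51%, and 1.83% in Ground replicates 1 to 3. The Space replicates ranged only from 2.73% to 3.04%, and Ground replicate 1 lay among them. The means were 2.87% ± 0.160 and 2.40% ± 0.529 (SD, n = 3 each).

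*Brdt* encodes the testis-specific member of the BET bromodomain proteins, which bind acetylated histones. Its gene (ENSMUSG00000029279) starts at position 107479024 on the plus strand of chromosome 5, and its promoter was the least covered of the 8, with 5 sites from 58 to 807 bp downstream read 13 to 35 times. The level was 8.47%, 7.50%, and 9.20% in Space replicates 1 to 3 and 5.75%, 7.92%, and 3.33% in Ground replicates 1 to 3. Ground replicate 2 lay within the Space values, and the means were 8.39% ± 0.851 and 5.67% ± 2.29 (SD, n = 3 each). Of all promoters, 94.6% had a lower mean. This rank rested on the 3 sites at 737, 765, and 807 bp, with mean levels of 8.19%, 15.5%, and 13.3%, whereas the site nearest to the TSS, at 58 bp, which alone lay within 500 bp, was at 1.49%. Single values at 765 bp ranged from 0% in Ground replicate 3 to 35.3% in Ground replicate 2, at a coverage that did not fall under 13 reads. With a minimum of 5 reads, the *Brdt* promoter had 8 sites and a mean level of 5.21% over the 6 samples.

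**Figure D2:**
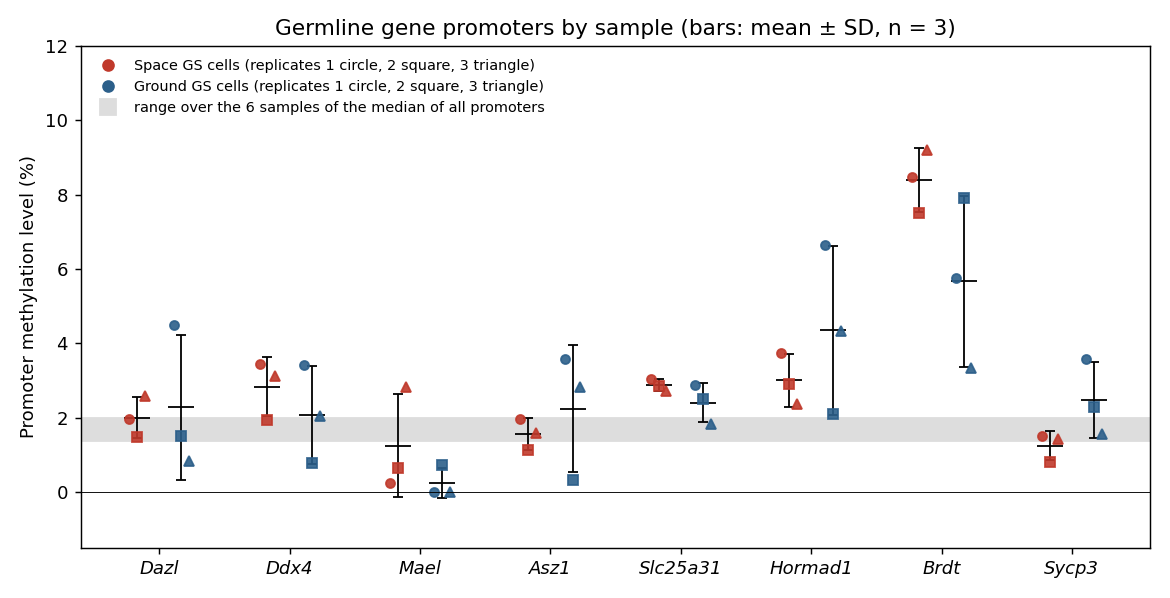
Promoter methylation level (y axis, percent) of 8 germ cell genes (x axis) in 3 Space (red) and 3 Ground (blue) replicates, with mean ± SD and a grey band for the range over samples of the median of all promoters, 1.38% to 1.99%. Only the *Sycp3* groups are apart, and *Brdt* is the highest gene in both groups.

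The comparison of Space and Ground GS cells asked whether the methylation of these promoters differed after storage in space and later culture. The paper reports that the cells for RRBS had been cultured and passaged after thawing, so that cells just thawed were not measured. In the quasi-binomial test over all promoters, with dispersions moderated by limma, 0 of the 8 promoters differed at an adjusted p under 0.05, and 0.0% of 14361 promoters did. At an unadjusted p under 0.05 the count was again 0 of 8, where 5.31% of all promoters passed. The quasi-likelihood test of edgeR also called 0 promoters, of which 572 had an unadjusted p under 0.05. The smallest adjusted p was that of *Sycp3* (0.928 in this test), with a difference of -1.23 percentage points, followed by *Mael* (0.935), with a difference of 1.0. The largest difference, 2.72 percentage points in *Brdt*, had an adjusted p of 0.982 in the same test. Space levels were higher in 4 and lower in 4 of the 8, and higher in 54.2% of all promoters. The median absolute difference was 0.881 percentage points, and that of all promoters was 0.598. Exact two-sided permutation tests of the single promoters gave p-values from 0.1 to 0.9, and 0.1 is the smallest p that 3 against 3 samples allow.

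Ground replicate 1 had the highest level in *Dazl*, *Asz1*, *Hormad1*, and *Sycp3*. The mean over the 8 promoters was 3.05%, 2.40%, and 3.23% in Space replicates 1 to 3 and 3.79%, 2.27%, and 2.09% in Ground replicates 1 to 3. The median of all promoters was 1.96%, 1.67%, and 1.57% in Space and 1.99%, 1.56%, and 1.38% in Ground replicates. Ground replicate 1 was highest and Ground replicate 3 lowest in both measures, and the part of this sample-wide level in the values of single genes was not tested. Without Ground replicate 1, the difference of *Dazl* changed from -0.279 to 0.834 percentage points (limma-moderated adjusted p = 0.825).

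At single CpGs, 25 sites of the germ cell genes had a mean level between 5% and 95% and could be tested, 12 of them in promoters. The smallest p was 0.132 (quasi-binomial test moderated by limma, smallest adjusted p of these sites = 0.948), so that 0 sites had an unadjusted p under 0.05, where 5.61% of all 92042 tested sites did. Differences over 20 percentage points were present at 0 of 180 sites, and at 0.196% of all sites. The largest was 9.51 percentage points, at a *Tex101* site. In 9 of 180 sites the groups did not overlap, which was the case at 4.99% of all sites.

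**Figure D3:**
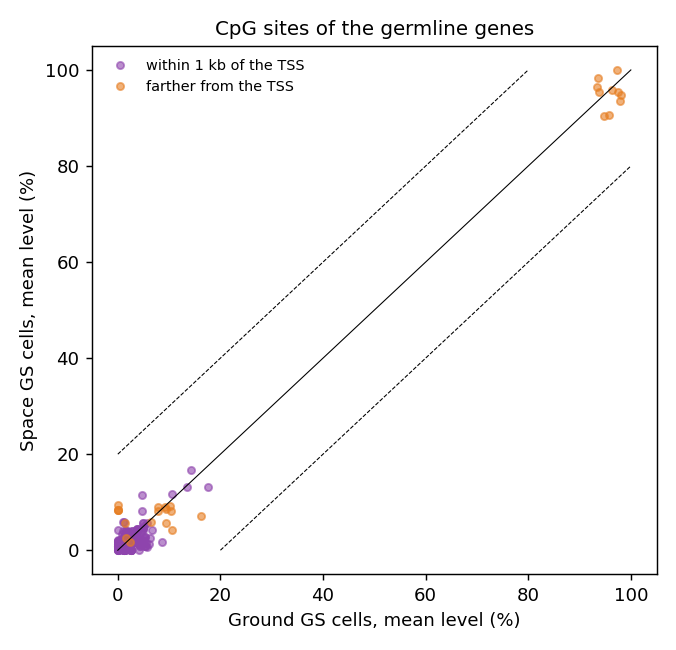
Mean level in Space GS cells (y axis, percent) against Ground GS cells (x axis, percent) of the 180 CpG sites of the germ cell genes, as 1 point per site, with equality as a solid line and a difference of 20 percentage points as dashed lines. Promoter sites (purple) lie under 20% in both groups, sites beyond 1 kb (orange) are either under 20% or above 90%, and 0 sites lie outside the dashed lines.

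The 9 sites included 3 neighbouring CpGs of *Hormad1*, at 59, 54, and 28 bp upstream, which had the same values and were probably covered by the same reads. Their level was 2.63%, 0%, and 0% in Space replicates 1 to 3 and 7.41%, 2.94%, and 5.71% in Ground replicates 1 to 3, or 1 of 38 reads in Space replicate 1 and 1 of 34 in Ground replicate 2. The gap between the groups was thus a matter of single reads. In *Sycp3*, the sites at 186 and 201 bp had means of 1.39% and 1.48% in Space and 6.10% and 5.48% in Ground GS cells. Both had 0, 1, and 1 methylated reads in Space replicates 1 to 3. In Ground replicates 1 to 3 there were 3, 3, and 3 at 186 bp and 2, 3, and 3 at 201 bp. Coverage was similar at both, so that the same reads may have covered them. A site of *Ddx4* at 146 bp was higher in Space GS cells (4.02% and 1.68%), and one of *Asz1* at 27 bp upstream was methylated in 1 read of each Ground replicate and in 0 of 25, 28, and 23 reads of the Space replicates. The other 2 were *Syce1* sites with levels over 90%.

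Neighbouring CpGs on 1 read tell whether methylation lies on a few fully methylated molecules or is scattered. The table does not give single reads, but runs of at least 4 sites with equal coverage in each sample mark CpGs that the same reads probably covered. Of these, 13 lay in 5 of the germ cell genes. A methylated read was present in 55 of the 78 values (13 runs in 6 samples), and in 31 of these 55 (56.4%) every site of the run had at least 1. In promoters with a mean level under 10%, every site was methylated in 40.9% of 123498 such values. The 2 sets of runs were not matched in length, coverage, or level, each of which affects this share. In *Dazl*, the 5 CpGs from 433 to 506 bp each had 1 methylated read of 20 in Ground replicate 1 and 2 of 27 in Ground replicate 2. They had 1 or 2 of 27 reads in Space replicate 2, 0 or 1 of 36 in Ground replicate 3, and 0 in Space replicates 1 and 3. The *Dazl* runs from 59 to 76 and from 174 to 236 bp also had samples with a methylated read at every site. In those from 681 to 708, 743 to 757, and 786 to 861 bp, no sample had one at every site. PCR copies of 1 molecule and incomplete conversion also add to low levels, and their part was not tested.

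E-boxes with the sequence CACGTG, the motif to which MGA and MAX bind, were present on either strand (the motif is its own reverse complement) in 6 of the 10 germ cell promoters, namely *Ddx4*, *Mael*, *Slc25a31*, *Hormad1*, *Brdt*, and *Sycp3*. Of all 27025 promoters, 7.24% had one. The E2F sequence GGCGGGAA was present in 3 of 10 (*Ddx4*, *Slc25a31*, and *Hormad1*) and in 2.24% of all, and the shorter GCGGGA, which lies within it, in 5 of 10 and 20%. These motifs hold a CpG, and the germ cell promoters were richer in CpGs than all promoters. Promoters of like CpG content were not compared. A match describes the sequence, and binding was not measured. The CpG within the E-box was measured at 4 places. In *Ddx4* it lay 138 bp downstream of the deposited TSS, which is 27 bp upstream of the RefSeq start. It had 11 methylated of 382 reads there over the 6 samples. In *Slc25a31*, 74 bp upstream of the deposited TSS and 91 bp upstream of the RefSeq start, 1 of 133 reads was methylated. The E-boxes of *Hormad1*, at 54 and 17 bp upstream, had 6 methylated of 208 and 6 of 115 reads. In Space replicates 1 to 3 the methylated reads were 1, 0, and 0 at both. In Ground replicates 1 to 3 they were 2, 1, and 2 at 54 bp and 3, 0, and 2 at 17 bp. Levels in single samples ranged up to 4.48% in *Ddx4*, 3.57% in *Slc25a31*, and 14.3% (3 of 21 reads in Ground replicate 1) in *Hormad1*. The CpG in these E-boxes was thus unmethylated in most reads of both groups, and the E-boxes of *Mael*, *Brdt*, and *Sycp3* were not placed or not read at 5 reads.

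Away from the promoters, the 27 remaining sites were split between high and low levels. Single sites or short stretches in 5 genes were almost fully methylated, with mean levels of 96.1% in *Dazl* (16194 bp upstream), 94.6% in *Ddx4* (2 sites, 3924 and 4101 bp upstream), 96.5% in *Hormad1* (5341 bp downstream), 93.2% in *Brdt* (11814 bp downstream), and 96.0% and 95.6% in *Syce1* (2957 bp and 4 sites from 9831 to 9911 bp downstream). The lowest value of a sample at these places was 81.3%, in *Brdt* of Space replicate 3. With a minimum of 5 reads, 5 *Dazl* sites from 20561 to 20766 bp downstream (98.3%), 1 *Asz1* site 28594 bp downstream (98.1%), 1 *Hormad1* site 5204 bp downstream (98.3%), and 1 *Brdt* site 11602 bp downstream (96.5%) were added. These CpGs, assigned to the same genes by the closest TSS and read in the same samples, were almost fully methylated. The other far sites at 10 reads, 10 of *Slc25a31*, 6 of *Tex101*, and 1 of *Mael*, had low levels. Levels of far sites over all genes were not compared. Of the highly methylated CpGs, those upstream lie before the deposited start of the gene. Whether the others lie within the gene, in exons or introns, was not analysed here, since no mm39 annotation was at hand.

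**Figure D4:**
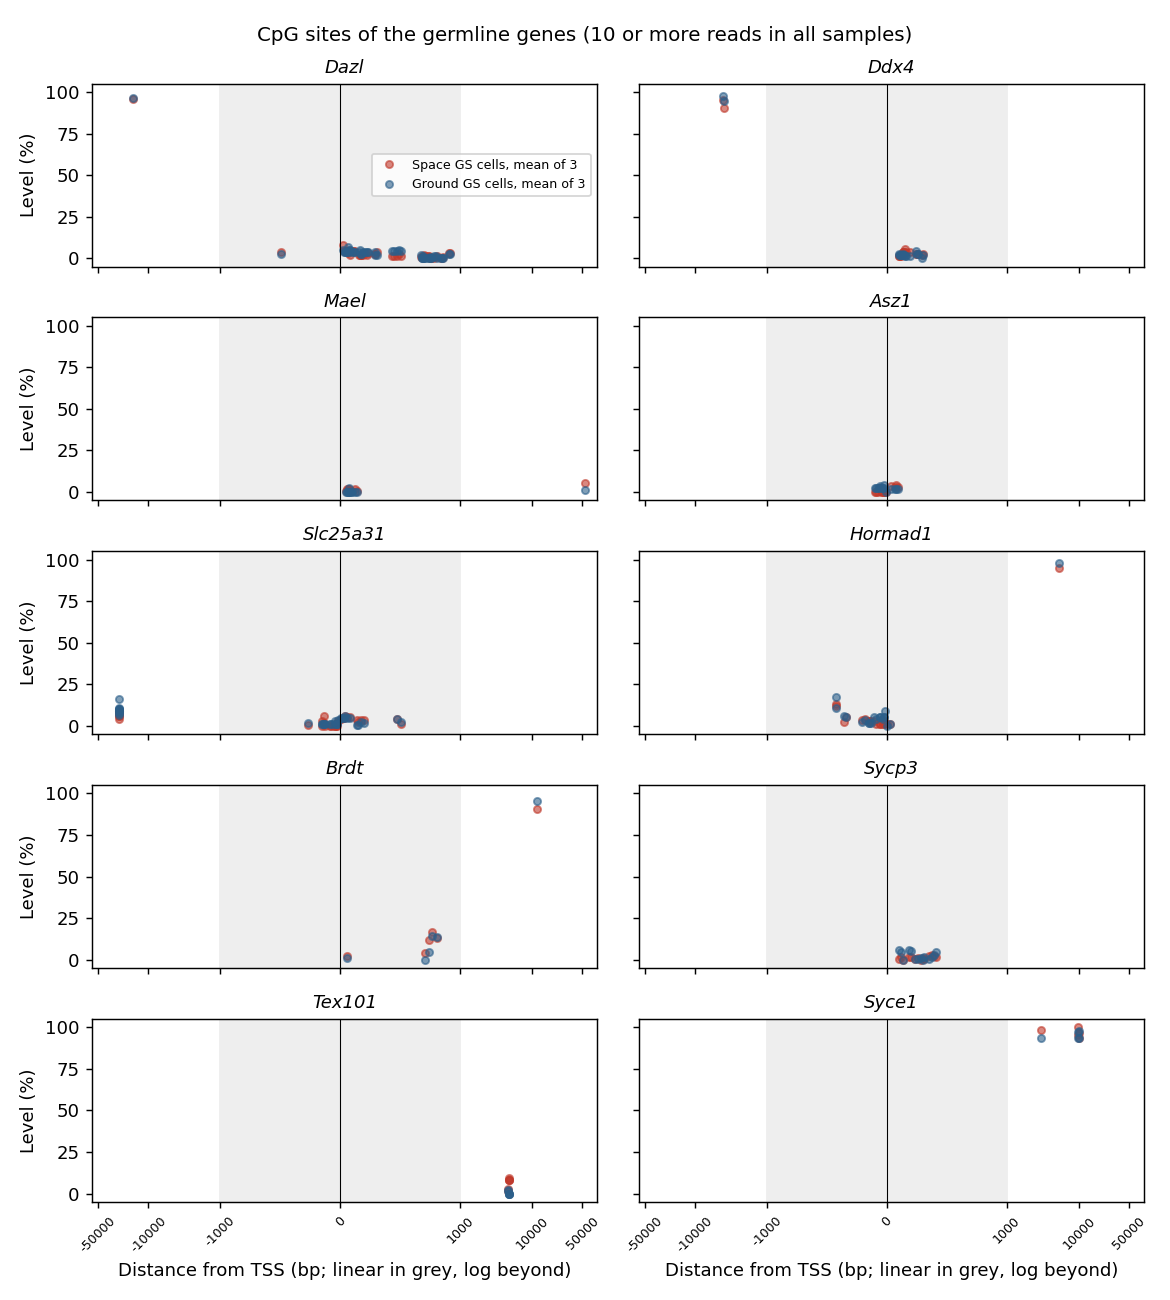
Mean level (y axis, percent) of the sites of each germ cell gene in 3 Space (red) and 3 Ground (blue) replicates against the distance from the TSS (x axis, bp, positive downstream), linear within 1 kb (grey) and logarithmic beyond. Promoter sites lie under 20%, and most far sites of *Dazl*, *Ddx4*, *Hormad1*, *Brdt*, and *Syce1* lie above 90%.

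*Syce1* encodes a protein of the central element of the synaptonemal complex. Its gene (ENSMUSG00000025480, TSS at position 140367764, minus strand of chromosome 7) had no promoter site with 5 reads in all samples, so that its promoter level is not known. At 2957 bp downstream, the level was 95.2%, 100%, and 100% in Space replicates 1 to 3 and 94.1%, 92.0%, and 94.7% in Ground replicates 1 to 3, with 14 to 25 reads. Space values were above the Ground values. At the next 4 sites (95.9% ± 2.68 in Space and 95.3% ± 2.91 in Ground, SD, n = 3 each) the groups overlapped.

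Low levels beyond 1 kb were found in 3 genes. In *Slc25a31*, 10 sites from 25519 to 25365 bp upstream had levels of 9.56%, 6.25%, and 8.43% in Space replicates 1 to 3 and 6.38%, 11.5%, and 14.8% in Ground replicates 1 to 3, and the groups overlapped. Their mean of 9.49% was above that of the *Slc25a31* promoter. A *Mael* site 53924 bp downstream was at 3.52%, with 17 to 23 reads.

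*Tex101* encodes a glycoprotein on the surface of male germ cells. Its gene (ENSMUSG00000062773, TSS at position 24376099, minus strand of chromosome 7) had no promoter site, but 6 sites from 4654 to 4829 bp downstream. The spacing of the measured CpGs fitted the RefSeq promoter of *Tex101* at 13 of 13 sites, with the RefSeq start 4625 bp downstream of the deposited TSS. In the GENCODE M21 annotation of GRCm38 the starts of the *Tex101* transcripts differ by the same 4625 bp. The 6 sites therefore lie just downstream of an annotated start of *Tex101*, although the deposited distance puts them outside promoters.

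There, the level was 0%, 6.40%, and 9.05% in Space replicates 1 to 3 and 2.87%, 0%, and 0% in Ground replicates 1 to 3. The means were 5.15% ± 4.65 and 0.958% ± 1.66 (SD, n = 3 each), with 20 to 62 reads per site, and the groups overlapped since Space replicate 1 was at 0%. The spread came from 4 CpGs from 4774 to 4829 bp, at which 2 of 20 reads were methylated at each site in Space replicate 2 and 4 or 5 of 27 in Space replicate 3, while 0 reads were in the other 4 samples. With a minimum of 5 reads, 19 sites from 4451 to 5221 bp had levels of 2.85%, 3.67%, and 5.48% in Space and 4.36%, 0.898%, and 2.84% in Ground replicates. With this second start counted, 9 of the 10 genes had reads near a start, at which the mean level was under 10%.

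Gene lists compared with these genes gave like values at 10 reads, and the lists were chosen with results of these data known. Of 20 other germ cell genes, 14 had a promoter with at least 3 sites, and 13 of 14 were under 5%, with a median of 2.68% and a range from 0.549% in *Smc1b* to 7.57% in *Tex19.1*. The median of the 8 germ cell promoters was 2.30%. Of 14 spermatogonial genes, 11 had such a promoter, and 10 of 11 were under 5% (median 1.93%, range 1.38% in *Ret* to 5.90% in *Pou5f1*). With a minimum of 5 reads, the highest spermatogonial gene was *Nanos2*, at 87.1%. The highest of the other germ cell genes was then *Dpep3*, at 27.6%. Low levels were not restricted to genes of germ cells. Of 14 fibroblast genes, 5 had a promoter, and 5 of 5 were under 5% (median 1.67%, highest 3.02% in *Pdgfrb*), as were 4 of 4 promoters of genes restricted to somatic tissues (highest 4.86% in *Nkx2-5*). In these GS cells, the promoter level therefore did not separate the covered spermatogonial genes from the covered fibroblast genes. Levels in fibroblasts were not measured.

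Genes methylated on the maternal allele in somatic cells bear on MEFs, in which half-methylated promoters would be read. Of 14 such genes, 8 had a promoter with at least 3 sites, and 8 of 8 were under 5%, with a median of 2.28% and a range from 1.21% in *Peg10* to 3.13% in *Nnat*. Their mean was 1.90%, 2.21%, and 1.71% in Space replicates 1 to 3 and 2.97%, 2.76%, and 1.56% in Ground replicates 1 to 3. Ground replicate 1 was again the highest and Ground replicate 3 the lowest. A promoter of this list need not lie within the methylated region of its gene. The part of feeder DNA in the levels of the germ cell genes was not tested.

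Within promoters, mean levels were low at each distance from the TSS. The mean of the sites of the germ cell genes was 2.47% within 200 bp (93 sites in 8 genes), 3.20% from 201 to 500 bp (34 sites in 5 genes), and 2.25% from 501 to 1000 bp (26 sites in 3 genes). Over all genes these means were 2.13%, 2.28%, and 3.52%. The most distant of the 3 intervals was thus lower in the germ cell genes than in all genes, and it held mainly sites of *Dazl*.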

How the data were processed

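DNA was extracted with the DNeasy Blood and Tissue Kit and read by RRBS with the Zymo-Seq RRBS kit in 3 Space and 3 Ground GS cell samples. The submitters' processing notes name Trim Galore, Bismark 0.24.2, methylKit, and mm39. Duplicate removal is not given in the sources used here. The authors deposited 1 table with, for each CpG site and sample, the coverage as a read count and the methylated share as a percent, next to the closest TSS and its distance. Samples were grouped by their titles. The number of methylated reads was computed as the product of coverage and percent.

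The reads summed over sites were 28535973 to 33743845 per sample, and the median coverage was 27 to 32. Limits at a level of 0% are 3 reads of the highest coverage of a site, since the same reads can cover neighbouring sites, and they cover counting error only. Sites needed 10 reads in all samples, promoters 3 sites within 1 kb. Promoters and sites (mean level 5% to 95%) were tested with a quasi-binomial test whose dispersion between replicates was moderated with limma 3.58.1 (R 4.3.3), with Benjamini-Hochberg adjustment over all features and a threshold of 0.05 (two-sided). Alternatives were 5 or 20 reads, promoters of 500 bp or 2 kb, 1 site per promoter, mean site levels (levels and differences, not tested), edgeR 4.0.16 on methylated and unmethylated counts, a replicate block, and leaving out each replicate. Figures were drawn with matplotlib 3.10.9. Of the other lists, only genes at 20% or above were to be named, and the lowest and highest gene of a list were named after their values were seen. The germ cell genes and lists were chosen with earlier results of these data known. Sites of germ cell genes were named in the text after their values were seen.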

Additional observations from a re-analysis of the deposited data

How the results depend on the processing

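The count of promoters past the threshold was 0 under the 13 alternatives in which it was tested, with 572 (edgeR) to 1052 (replicate block) promoters at an unadjusted p under 0.05 where all samples and 14361 promoters were used, and 763 in the test as reported. The count of sites past it, 0 as reported with 5161 sites at an unadjusted p under 0.05, ranged from 0 to 5 when a replicate was left out, and was 1 if Space replicate 2, 3 if Space replicate 3, and 5 if Ground replicate 1 was left out. The adjusted p of a germ cell promoter ranged from 0.671 to 1.0 over the alternatives. The difference between groups changed sign in *Dazl* without Ground replicate 1 (range -1.0 to 0.834 percentage points) and in *Slc25a31* with 5 reads (-0.0716), and the other 6 genes kept their direction wherever a value was computed (none for *Brdt* with 20 reads or within 500 bp). Leaving out 1 replicate moved the differences by more than 1.5 times in all 8 genes, from 0.209 (without Space replicate 3) to 1.5 in *Mael*, 0.110 (Ground replicate 2) to 1.43 (Ground replicate 1) in *Ddx4*, -1.64 (Ground replicate 2) to -0.0221 (Ground replicate 1) in *Asz1*, -2.48 (Ground replicate 2) to -0.213 (Ground replicate 1) in *Hormad1*, -1.68 to -0.677 (Ground replicate 1) in *Sycp3*, 1.56 (Ground replicate 3) to 3.85 in *Brdt*, and 0.179 (Ground replicate 3) to 0.700 (Ground replicate 1) in *Slc25a31*. The level was 3.36% in *Dazl* within 500 bp, 3.27% in *Slc25a31* with 20 reads, and 1.49% in *Brdt* with 20 reads or within 500 bp, where 1 site was left. With 20 reads, 7 of 8 other germ cell promoters were under 5%, since fewer were covered. The replicate number as a block called 0 promoters and 0 sites, and its smallest adjusted p of a germ cell promoter was that of *Sycp3*, 0.671. Across the tested CpG sites, deviations from the group mean correlated weakly between samples of the same number (0.0438, 0.0220, and 0.00988). The mean correlation of samples of different number was -0.0126. These values cannot tell whether samples of the same number were paired. At a coverage of 13 reads, as in *Brdt*, a difference of a few percentage points at a single site was not detectable.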

Other observations

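With a minimum of 5 reads, 2 promoters of the other lists had a mean level of 20% or above, which 0 had at 10 reads. *Nanos2*, a regulator of spermatogonial stem cells, was at 87.1%, and *Dpep3*, a membrane dipeptidase gene of the testis, at 27.6%. The low coverage limits both values, and no test was made of them.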
